A study of Coptotermes formosanus x Coptotermes gestroi and Coptotermes formosanus and Coptotermes gestroi with 67 samples.

Results

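Of 15950 genes counted in termite workers, 136 (0.853%) stood at least 4 times higher before the molt than both between and after molts, in head and in body, and in each of 4 crosses. These 136 genes were chosen by that stage difference, in all 16 fold values (pre-molt over inter-molt and pre-molt over post-molt, in 8 pairs of cross and tissue), each taken on CPM plus 1, where CPM is a gene's count scaled to a common library total. The workers were of Hybrid G and Hybrid F, both crosses of the subterranean termites Coptotermes gestroi and C. formosanus, and of these parental species themselves. Which species was the mother of which hybrid is not given in the sources used here, and neither is the number of insects or colonies behind a sample. Each cross was sampled at inter-molt, pre-molt and post-molt, as head and as body, which means thorax and abdomen without the gut, so the 4 crosses, 3 stages and 2 tissues gave 24 groups. RNA was sequenced from 67 samples, but all columns deposited for 1 group held the same values (they differed at 0 genes), so each group entered as 1 profile and no error within a group could be had. The errors below are therefore spreads over crosses or over profiles. For post-molt over inter-molt and for head over body, p-values compare a difference with its spread over crosses. For contrasts between crosses, head and body served as the replicates of a cross. Spread among the hybrids or among the species does not enter those p-values, which cover only the crosses sampled.

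Before an insect sheds its cuticle, the epidermis parts from the old layer and lays down a new one beneath it, and a pulse of ecdysteroid hormone sets off this sequence. In other insects, genes for cuticle proteins, for making and digesting chitin and for the response to ecdysteroids are transcribed in that window, and epidermis covers head, thorax and abdomen alike. Worker termites keep molting through life, and baits that block chitin synthesis act on them at the molt. The files pair no gene ID with a name, so no member is assigned a role here, the heads and bodies could not be checked against markers of their cell types, and no list of molting genes could be counted.

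Of the members, 104 carry a Cfor number and 32 a BGI_novel number, shares of 76.5% and 23.5%, against 75.2% and 24.8% of all genes. Their median length was 2684 bases, against 2439 for all genes, and 14 members (10.3%) were shorter than 1000 bases, against 21.2% of all genes. NA stood in at least 1 profile for 12 members, but in no pre-molt profile. Total counts per profile lay between 9861833 and 38338701, which puts 3 counts, the limit that a count of 0 allows, at 0.0782 to 0.304 CPM. The lowest pre-molt value of any member in any profile was 4.32 CPM, above that limit. The rule fixes this, and the lack of NA before the molt, in advance. It needs a pre-molt CPM plus 1 of at least 4, with NA read as 0.

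One profile stood apart in these genes. Between molts, the body of Hybrid G had 1.01% of all its counts in the members, while the other 7 inter-molt profiles had 0.0252% to 0.0592%. Its stage is known from its label alone, since the choice of members itself keeps every member at least 4 times below the pre-molt body of Hybrid G. Whether pre-molt insects or reads contributed to this profile was not tested, so its inter-molt values carry that doubt. Counts and medians that enter with this profile are given without it as well where they moved.

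Before the molt the 136 genes together held 6.55% of the counts in the head of Hybrid G, 7.36% in Hybrid F, 9.35% in C. gestroi and 9.32% in C. formosanus. In the pre-molt bodies they held 6.33% in Hybrid G, 7.49% in Hybrid F, 7.79% in C. gestroi and 11.8% in C. formosanus. After the molt the share was between 0.0954% and 0.364% in the 8 profiles. These shares describe the stage difference that chose the members and carry no test.

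**Figure D1:**
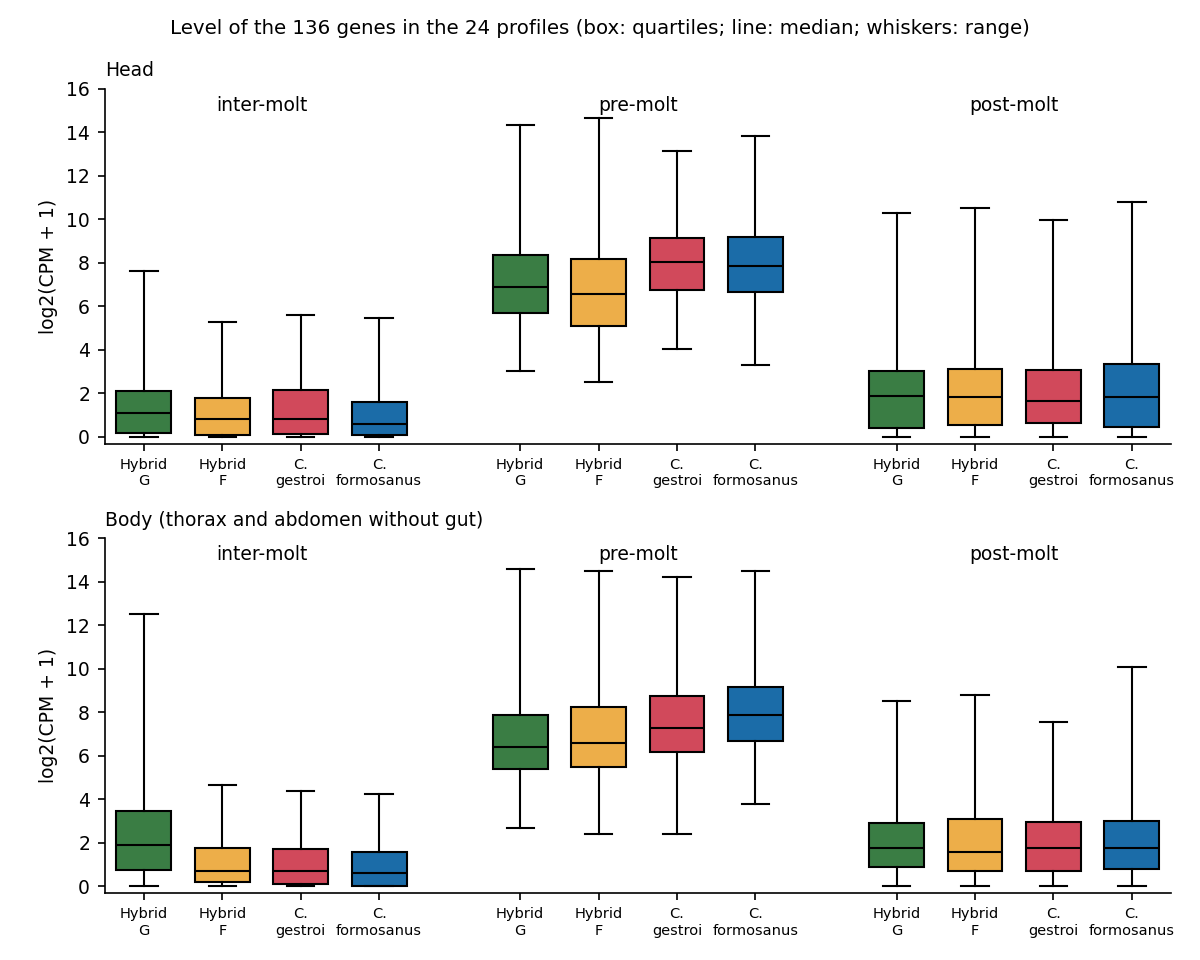
Level of the 136 genes, as log2(CPM + 1), in heads (upper panel) and bodies (lower panel) at inter-molt, pre-molt and post-molt. Each box spans the quartiles over genes in 1 profile, the line is the median and the whiskers are the range. The pre-molt medians of both hybrids lie below those of both species, and the inter-molt body of Hybrid G lies above the other inter-molt bodies.

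The size of the stage difference varied widely among the members. The median over members of the geometric mean fold over 4 crosses was 58.5 for pre-molt over inter-molt in head and 47.8 in body (62.8 in body over the 3 crosses other than Hybrid G). For pre-molt over post-molt it was 29.4 in head and 29.8 in body. Folds over inter-molt reached 3987 in head, and the lowest geometric mean was 5.17, for pre-molt over post-molt in head. Between molts 4 members had no count in any of the 8 profiles and 49 had none in at least 1, while after the molt no member was without a count in all 8 profiles. Over the 8 pre-molt profiles the mean level had a median of 188.6 CPM over members and ran between 12.6 and 20001 CPM; 97 members reached 100 CPM and 19 reached 1000 CPM. Per kilobase of gene length the median member had 60.3 CPM per kb before the molt, against 2.65 CPM per kb for all genes, and 15 members were among the 100 highest genes on that scale. The rule chose members on these same pre-molt values, so a high level follows in part from the choice. All genes here include those with few or no counts.

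The smallest of a member's 16 folds lay most often in the body of Hybrid G over inter-molt, for 44 members, and next in the head of Hybrid F over post-molt, for 27. In the body of Hybrid G the median fold over inter-molt was 14.9, against 38.7 to 90.1 in the bodies of the other crosses. The members just inside the threshold were BGI_novel_G000747, BGI_novel_G002248 and Cfor_03311, with smallest folds of 4.01, 4.04 and 4.08. Just outside it were Cfor_12456, Cfor_00126 and Cfor_03200, with smallest folds of 3.97, 3.93 and 3.87. In all, 43 genes passed 15 of the 16 folds. Without the inter-molt body of Hybrid G the rule would hold for 156 genes, a count that can only rise when a profile is left out.

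A few genes made up much of the pre-molt counts. BGI_novel_G001120, a gene of 760 bases, had 20509, 25809, 9215 and 14623 CPM in the pre-molt heads of Hybrid G, Hybrid F, C. gestroi and C. formosanus, in that order, and 24412, 23279, 19361 and 22801 CPM in the pre-molt bodies. It averaged 26317 CPM per kb over the 8 pre-molt profiles, which placed it at rank 2 of all genes on that scale. Its inter-molt values were 13.2, 5.14, 1.98 and 1.73 CPM in heads of the same crosses and 5868, 15.2, 2.28 and 10.9 CPM in bodies. The inter-molt body of Hybrid G thus lay far above the other 3 bodies for this gene, at a level that still left the pre-molt body more than 4 times higher. After the molt it had 1269, 1478, 997 and 1810 CPM in heads and 367, 438, 185 and 1073 CPM in bodies, so that each post-molt head lay above the post-molt body of the same cross.

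BGI_novel_G001406 had 7676, 9366, 5044 and 7688 CPM in the pre-molt heads of Hybrid G, Hybrid F, C. gestroi and C. formosanus, and 7970, 10429, 6180 and 9750 CPM in the bodies. Cfor_12028 had 3697, 5516, 5912 and 6149 CPM in these heads and 2638, 4571, 1458 and 4676 CPM in these bodies. The C. gestroi body was the lowest of its 8 pre-molt values. The other 5 of the 8 members with the highest mean pre-molt CPM were Cfor_08096, Cfor_07265, Cfor_11501, BGI_novel_G001607 and BGI_novel_G002419, with means of 2668, 2260.4, 2172, 1914 and 1898 CPM, not divided by gene length. BGI_novel_G001120, BGI_novel_G001406 and Cfor_12028, the 3 with the highest means, together held 48.7% to 55.4% of the members' pre-molt counts in the 4 hybrid profiles, against 21.6% to 34.7% in the 4 profiles of the parental species.

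The higher level in the body of Hybrid G between molts was spread over many members and was strongest in a few. Of the 136 members, 86 (63.2%) lay above each of the other 3 inter-molt bodies in CPM, against 15.1% of all genes, and 30 (22.1%) lay at least 4 times above all 3 on CPM plus 1, against 0.978% of all genes. The median member stood at 3.63% of its own pre-molt level there, against 0.170% to 0.395% in the inter-molt bodies of the other crosses, and single members stood between 0% and 24.04%. Among the 8 members with the highest pre-molt CPM, BGI_novel_G001120 with 5868 CPM, BGI_novel_G001406 with 1806 CPM, BGI_novel_G002419 with 292 CPM and Cfor_12028 with 264 CPM had the highest values there. In the inter-molt head of Hybrid G, 44 members lay above each of the other 3 inter-molt heads, against 10.03% of all genes, and BGI_novel_G001607 had 195 CPM there, against 0.810 CPM in Hybrid F, 0.119 CPM in C. gestroi and 0.136 CPM in C. formosanus.

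**Figure D2:**
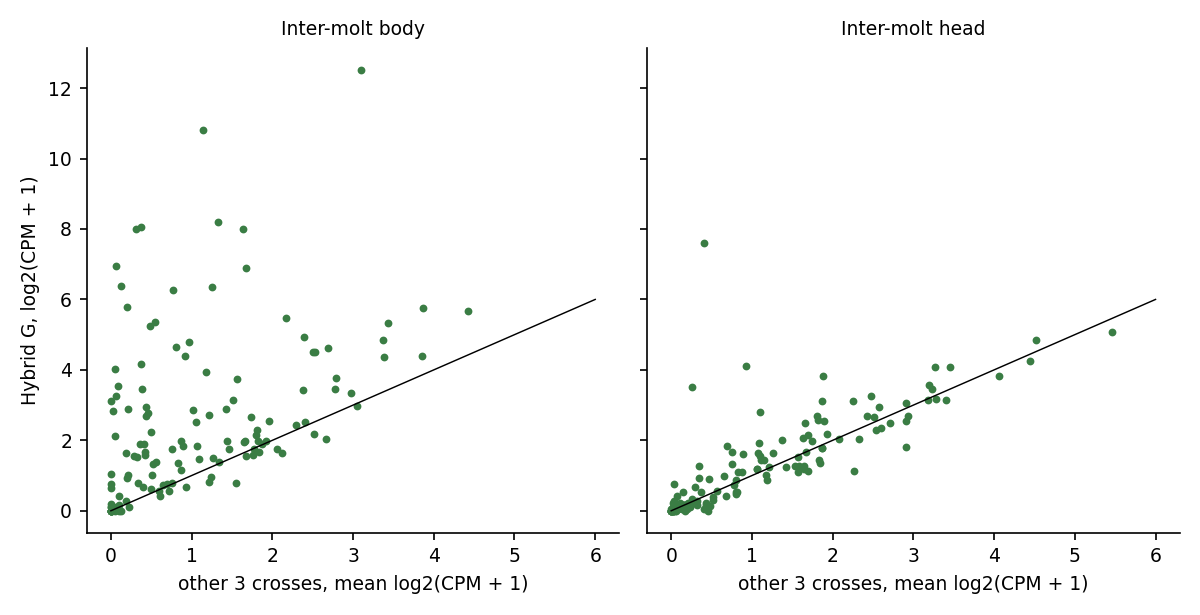
Level of each of the 136 genes between molts, as log2(CPM + 1), in Hybrid G (y axis) against the mean over the other 3 crosses (x axis), in body (left) and head (right). Each point is 1 gene and the line marks equal levels. Many genes lie far above the line in the body, and few lie far above it in the head.

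The rule sets no order among crosses, so the choice of members left the difference between hybrids and parental species free. Before the molt, 69 of the 136 members were lower in the hybrids and 2 were higher at an edgeR adjusted p under 0.05, against 6.17% lower and 10.8% higher (17% in all) among the 13534 genes tested. All 136 members were among the genes tested. The median log2 fold change of the members was -1.08, a ratio of 0.472, against 0.06 for all genes, and 111 members had a negative value. The values ran between -2.82 and 1.50. The count of members past the threshold lay between 44 and 70 when 1 pre-molt profile at a time was left out, lowest without the body of Hybrid G (0 higher and 44 lower) and next without the body of C. formosanus (46 in all, against 71 with every profile). In these fits 32.4% to 50.7% of members were lower, against 1.51% to 11.1% of all genes. Higher were 0% to 5.15% of members, against 4.41% to 15.7% of all genes. Without the inter-molt body of Hybrid G, 75 members (55.1%) were lower and 6 (4.41%) higher, against 6.33% and 10.9% of all genes.

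Of the 8 members with the highest pre-molt CPM, Cfor_08096 had 696 and 504 CPM in the pre-molt heads of Hybrid G and Hybrid F, against 2208 and 2468 CPM in those of C. gestroi and C. formosanus. Its pre-molt bodies had 1628 and 1355 CPM in Hybrid G and Hybrid F, against 4648 and 7838 CPM in C. gestroi and C. formosanus. Both hybrids lay below both species in both tissues, with a log2 fold change of -1.81 (SE 0.22, adjusted p 0.00037 by edgeR). Cfor_11501 averaged 1295 ± 569 CPM in the hybrids and 3048 ± 1216 CPM in the species (SD, n = 4 profiles each), with a log2 fold change of -1.06 (adjusted p 0.017 by edgeR; 0.11 without the pre-molt body of Hybrid G). BGI_novel_G001607 went the other way, at 2450 and 3361 CPM in the heads of Hybrid G and Hybrid F, against 864 and 3502 CPM in those of C. gestroi and C. formosanus. The groups overlap, since the C. formosanus head was the highest of the 4, and the log2 fold change was 0.86 (SE 0.19, adjusted p 0.013 by edgeR; 0.075 without the pre-molt body of Hybrid G). The other 5 did not pass the threshold, with log2 fold changes between -0.68 for Cfor_07265 and 0.77 for BGI_novel_G001120 and standard errors between 0.72 and 0.88.

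The largest decreases were in BGI_novel_G001861 and Cfor_08093. BGI_novel_G001861 had 688 and 376 CPM in the pre-molt heads of Hybrid G and Hybrid F, against 3988 and 1233 CPM in C. gestroi and C. formosanus. In the bodies it had 36.1 and 28.2 CPM in Hybrid G and Hybrid F, against 986 and 232 CPM in C. gestroi and C. formosanus. Its log2 fold change was -2.82 (SE 0.42, adjusted p 0.0018 by edgeR). Cfor_08093 had 205 and 61.9 CPM in the heads and 51.7 and 13.1 CPM in the bodies of Hybrid G and Hybrid F, against 448 and 535 CPM in the heads and 584 and 96.4 CPM in the bodies of C. gestroi and C. formosanus. Its log2 fold change was -2.66 (SE 0.43, adjusted p 0.0021 by edgeR; 0.052 from the pre-molt profiles alone). For both genes the hybrids lay below the species in each tissue without overlap. The only other member called higher in hybrids was Cfor_10233, with 131 and 145 CPM in the heads and 109 and 133 CPM in the bodies of Hybrid G and Hybrid F, against 106 and 42.8 CPM in the heads and 47.8 and 33.6 CPM in the bodies of C. gestroi and C. formosanus. Its log2 fold change was 1.50 (SE 0.38, adjusted p 0.024 by edgeR; 0.11 without the pre-molt body of C. gestroi).

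Counted without a test, on CPM scaled by edgeR's trimmed mean of M values (TMM), both hybrids lay below both species for 92 members in the pre-molt head and 80 in the pre-molt body, against 11.2% and 19% of all genes tested. In both tissues at once this held for 69 members (50.7%), against 5.79% of all genes tested. Between molts the same count was 16 members in heads (12.2% of all genes) and 3 in bodies (6.36%), where Hybrid F alone lay below both species for 22 members (16.4% of all genes). After the molt it was 23 members in heads (6.23%) and 24 in bodies (14.3%). The median difference in log2(CPM + 1), hybrids minus species, was -1.13 in the pre-molt head and -0.96 in the pre-molt body. Between molts it was 0.02 in head and 0.34 in body (0.01 in body for Hybrid F alone minus the species), and after the molt -0.02 in head and -0.11 in body. The median member had 0.513 to 2.70 CPM in profiles between molts and 2.02 to 2.65 CPM after, against 83.8 to 264 CPM before. At such low levels the added 1 shrinks a difference, so these medians cannot show whether the hybrids' lower level is confined to pre-molt. Scaling by column totals moved the median of all genes in the pre-molt head to -0.15 and in the body to -0.07, against 0.02 and 0.04 with TMM, and the members' medians to -1.34 and -1.12. These are bulk samples, in which fewer cells of a type and less RNA per cell cannot be told apart, and neither can a difference in how close to the molt the pre-molt workers of each cross were taken.

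**Figure D3:**
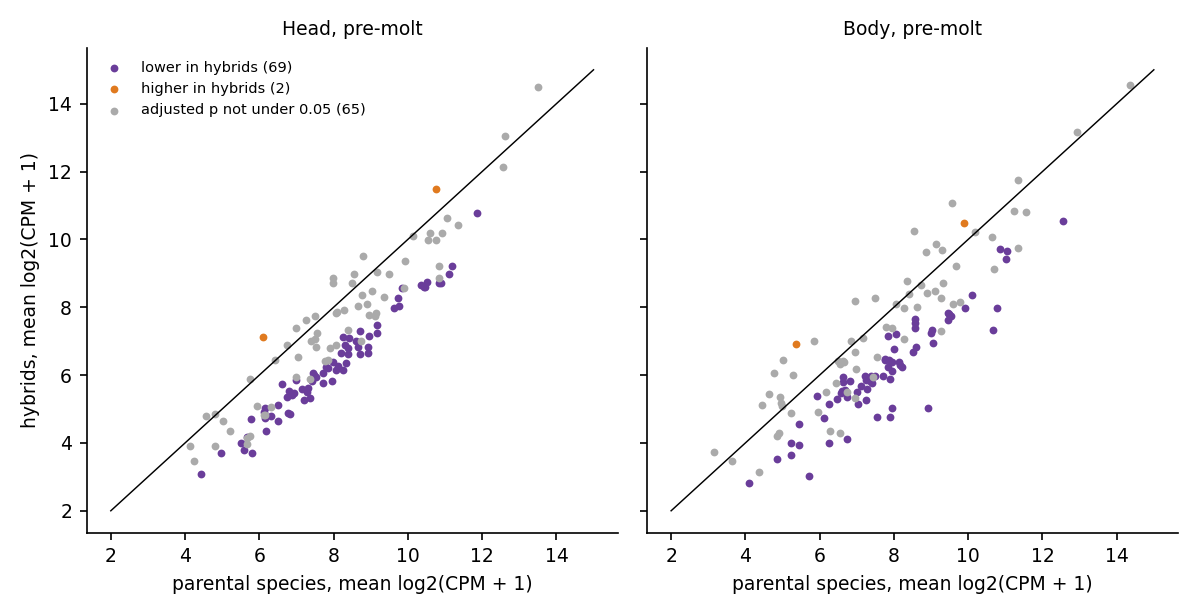
Pre-molt level of each of the 136 genes, as mean log2(CPM + 1) over the 2 hybrids (y axis) against the mean over the 2 species (x axis), in head (left) and body (right). Colours mark the 69 genes lower and the 2 genes higher in hybrids at an edgeR adjusted p under 0.05, and the line marks equal levels. Most points lie below the line in both tissues, while the highest few lie near or above it.

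Between the species the members split both ways. At pre-molt, 14 members stood higher in C. gestroi and 13 stood lower, each against C. formosanus (edgeR adjusted p under 0.05). That is 27 in all, against 19.6% higher, 21.5% lower and 41% in all among the genes tested, so the members' shares of 10.3% and 9.56% were below the background. The median log2 fold change was -0.15 and the values ran between -2.66 and 2.54. From the pre-molt profiles alone 42 members passed the threshold, 21 (15.4%) in each direction, near the 16% higher and 18.2% lower among all genes in that fit. Without the inter-molt body of Hybrid G also 42 passed, 19 higher (14%) and 23 lower (16.9%), against 19.8% and 21.5% of all genes. Without the pre-molt head of C. formosanus 17 passed.

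Cfor_02705 had 703 CPM in the pre-molt head and 561 CPM in the pre-molt body of C. gestroi, against 165 and 91.3 CPM in C. formosanus. Both hybrids lay below C. formosanus, with 152 and 122 CPM in the heads and 83.4 and 67.1 CPM in the bodies of Hybrid G and Hybrid F. The log2 fold change of C. gestroi over C. formosanus was 2.54 (SE 0.26, adjusted p 3.0e-05 by edgeR). Cfor_03793 had 1918 and 2108 CPM in head and body of C. gestroi, against 432 and 563 CPM in C. formosanus, and 326 to 432 CPM in the 4 hybrid profiles. Its log2 fold change was 2.19 (SE 0.44, adjusted p 0.0024 by edgeR). Cfor_12027 had 4520 and 3452 CPM in head and body of C. gestroi, against 806 and 753 CPM in C. formosanus, with a log2 fold change of 2.50 (SE 0.66, adjusted p 0.011 by edgeR; 0.10 without the pre-molt head of C. formosanus). Its ID number is next to that of Cfor_12028, whose log2 fold change between the species was -0.61 (SE 1.12, adjusted p 0.70 by edgeR).

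Lower in C. gestroi was BGI_novel_G003159, with 63.0 and 190.0 CPM in its pre-molt head and body, against 359 and 1681 CPM in C. formosanus. Its hybrid values lay between those of the species in both tissues. The log2 fold change was -2.66 (SE 0.46, adjusted p 0.0013 by edgeR; 0.17 with DESeq2). BGI_novel_G002248 had 53.3 and 18.4 CPM in head and body of C. gestroi, against 207 and 168 CPM in C. formosanus, with a log2 fold change of -2.32 (SE 0.54, adjusted p 0.0055 by edgeR; 0.063 without the pre-molt body of C. gestroi). Cfor_09252 had 261 and 10.3 CPM in head and body of C. gestroi, against 743 and 82.5 CPM in C. formosanus, with a log2 fold change of -2.11 (SE 0.65, adjusted p 0.028 by edgeR; 0.17 without the pre-molt body of C. formosanus).

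The hybrids were closer to each other. Before the molt 6 members were higher and 0 lower in Hybrid G than in Hybrid F with edgeR, against 0.51% and 0.325% of all genes tested (0.835% in all). Another count, 18 members with an unadjusted p under 0.05, has no background beside it. DESeq2 called 10 members (7.35%) higher and 0 lower, against 1.31% and 0.82% of all genes. The count did not hold under smaller fits, in which fewer of all genes passed as well. With 1 pre-molt profile left out 1 to 3 members passed, and 1 without the head of either hybrid. Higher were 0.735% to 2.21% of members, against 0.103% to 0.205% of all genes. Lower were 0% of members, against 0.0952% to 0.19% of all genes. From the pre-molt profiles alone 0 members passed, against 0.0238% of all genes in each direction. Cfor_03964 had 90.5 and 86.8 CPM in head and body of Hybrid G, against 14.9 and 25.9 CPM in Hybrid F, with a log2 fold change of 2.21 (SE 0.26, adjusted p 0.0022 by edgeR; 0.15 from the pre-molt profiles alone). In C. gestroi it had 191 and 156 CPM in head and body and in C. formosanus 114 and 153 CPM, above both hybrids. Cfor_02191 had 218 and 324 CPM in head and body of Hybrid G, against 43.9 and 116 CPM in Hybrid F, with a log2 fold change of 1.94 (SE 0.38, adjusted p 0.043 by edgeR; 0.48 without the pre-molt head of Hybrid F). In the other 4, Cfor_01386, Cfor_04052, Cfor_07450 and Cfor_10737, named after their values were seen, Hybrid F also had the lowest pre-molt value of the 4 crosses in both tissues. The spread over the 4 crosses before the molt was wide for the members, with a median SD of 0.88 log2 units in head and 0.92 in body, against 0.27 and 0.39 for all genes of at least 10 CPM.

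Head and body differed in both directions before the molt, at shares near those of all genes in the fit of all 24 profiles. In the head 17 members were higher and 18 lower than in the body (edgeR adjusted p under 0.05), against 13.5% and 15% of all genes tested (28.5% in all), beside members' shares of 12.5% and 13.2%. The count lower in the head moved with the profiles fitted: without the inter-molt body of Hybrid G, 28 members (20.6%) were lower and 18 (13.2%) higher, against 15.5% and 13.3% of all genes, and from the pre-molt profiles alone 25 (18.4%) were lower and 15 (11%) higher, against 11.1% and 8.59%. The median log2 fold change of head over body was -0.16. Within each of the 4 crosses, on TMM-scaled CPM, 25 of the 136 members were higher in the head (24.9% of all genes tested) and 39 were lower (22.4%). Without overlap between the 4 heads and the 4 bodies, 8 of the 136 were higher in the head (8% of all genes tested) and 4 were lower (8.59%).

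Cfor_05327 had the largest difference, with 528, 306, 1687 and 1014 CPM in the pre-molt heads of Hybrid G, Hybrid F, C. gestroi and C. formosanus, against 9.35, 5.54, 51.1 and 51.5 CPM in the bodies. Every head lay above every body, and the log2 fold change was 5.02 (SE 0.30, adjusted p 3.3e-06 by edgeR). Cfor_08155 averaged 821 ± 208 CPM in heads and 57.2 ± 48.8 CPM in bodies (SD, n = 4 crosses), with a log2 fold change of 4.05 (adjusted p 8.3e-05 by edgeR). Cfor_09252 averaged 619 ± 258 CPM in heads and 43.2 ± 29.7 CPM in bodies (SD, n = 4 crosses), with a log2 fold change of 3.84 (adjusted p 0.00047 by edgeR).

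The members lower in the head differed less. BGI_novel_G003159 had 179.5, 215, 63.0 and 359 CPM in the pre-molt heads of Hybrid G, Hybrid F, C. gestroi and C. formosanus, against 773, 1137, 190.0 and 1681 CPM in the bodies. The head was lower in each cross, with a log2 fold change of -2.29 (SE 0.32, adjusted p 0.00056 by edgeR; 0.098 with DESeq2). Cfor_08096 averaged 1469 ± 1012 CPM in heads and 3867 ± 3039 CPM in bodies (SD, n = 4 crosses), with a log2 fold change of -1.56 (adjusted p 0.00033 by edgeR). BGI_novel_G000814 averaged 28.2 ± 11.5 CPM in heads and 74.9 ± 35.2 CPM in bodies (SD, n = 4 crosses), with a log2 fold change of -1.57 (adjusted p 0.016 by edgeR; 0.076 without the pre-molt body of C. formosanus).

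After the molt many members lay above their level between molts. In the head 70 members were higher and 3 lower at post-molt than at inter-molt (edgeR adjusted p under 0.05), against 23.9% and 24.5% of the 12845 genes tested (48.4% in all). The median log2 fold change was 1.80, a ratio of 3.48, against -0.02 for all genes, and 116 members had a positive value. In the body 22 members were higher and 3 lower, against 11.9% and 8.59% of the 13046 genes tested (20.5% in all), with a median of 1.09. The count in the body rested on the inter-molt body of Hybrid G: without it 62 members were higher and 1 lower, with a median of 2.29. These were 45.6% and 0.735% of the members, against 10.8% and 7.21% of all genes. With any other single inter-molt or post-molt body left out, between 14 and 20 members passed in either direction. Then 9.56% to 13.2% of members were higher, against 6.29% to 10.3% of all genes. Lower were 0% to 4.41% of members, against 3.91% to 8.74%. DESeq2 called 56, with 39% of members higher and 2.21% lower, against 15.8% and 14.5% of all genes. Without the inter-molt bodies of C. gestroi and C. formosanus, which are the shallowest profiles, 14 passed. Their shares were 6.62% higher and 3.68% lower, against 5.85% and 6.13% of all genes. From the post-molt and inter-molt profiles alone, 112 members were tested in the body. Of these, 13 (11.6%) were higher and 1 (0.893%) lower, against 8.62% and 6.55% of all genes. Post-molt and inter-molt stood in the rule only as the stages that lie below pre-molt, and the rule sets no order between them.

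Without overlap between the 4 post-molt and the 4 inter-molt profiles, on TMM-scaled CPM, 59 members were higher at post-molt in heads (14.6% of all genes tested) and 25 in bodies (9.9%). Within each cross 80 members were higher at post-molt in heads (28.3%) and 46 in bodies (22.3%). Of the 136 members, 17 passed the threshold in both tissues, 56 in the head alone, 8 in the body alone and 55 in neither, against 16.7%, 32.2%, 3.9% and 47.3% of the 12538 genes tested in both (12.5%, 41.2%, 5.88% and 40.4% of the members). Without the inter-molt body of Hybrid G the members' split was 51 in both tissues, 22 in the head alone, 12 in the body alone and 51 in neither. The split of all genes was not computed for that setting, so this one has no background beside it. Counting every call in the body, with or without a call in the head, 10.8% of all genes were then higher and 7.21% lower. The members' shares on that count were 45.6% and 0.735%. Passing in 1 tissue alone does not show a difference between tissues, which was tested directly.

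BGI_novel_G001840 had no count in the 4 inter-molt heads and 13.2, 9.52, 12 and 11.7 CPM in the post-molt heads of Hybrid G, Hybrid F, C. gestroi and C. formosanus. Pooled over the 4 heads it had 1499 counts at post-molt and 0 at inter-molt, which is at least 393-fold higher at post-molt when 3 counts over the 4 inter-molt heads are taken as the limit (adjusted p 0.0013 by edgeR). BGI_novel_G001120, whose values are given above, had a log2 fold change of 8.87 in the head (SE 0.68, adjusted p 5.4e-05 by edgeR). The pooled ratio was 264, with an exact 95% counting interval of 243 to 288. Intervals of this kind leave out the spread over crosses.

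The 3 members lower at post-molt in the head were Cfor_02704, Cfor_03203 and Cfor_04364. Cfor_03203 had 1.21, 1.40, 0.730 and 1.88 CPM in the post-molt heads of Hybrid G, Hybrid F, C. gestroi and C. formosanus, against 4.09, 5.62, 5.22 and 4.42 CPM in the inter-molt heads. Every post-molt head lay below every inter-molt head, with a log2 fold change of -1.40 (SE 0.36, adjusted p 0.013 by edgeR). Cfor_02704 had 0.104 to 0.179 CPM in post-molt heads, against 0.435 to 1.03 CPM in inter-molt heads, which is 19 pooled counts against 74, with a log2 fold change of -1.79 (SE 0.49, adjusted p 0.018 by edgeR; 0.072 without the post-molt head of C. formosanus).

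In the body, BGI_novel_G002832 had no count in the 4 inter-molt profiles and 1.82, 1.0, 1.43 and 3.73 CPM in the post-molt bodies of Hybrid G, Hybrid F, C. gestroi and C. formosanus. Its 267 pooled post-molt counts are at least 52.5-fold higher than the limit of 3 counts over the 4 inter-molt bodies (adjusted p 0.0016 by edgeR; 0.054 from the post-molt and inter-molt profiles alone). Cfor_08082 had 183 pooled counts in post-molt bodies and 1 in inter-molt bodies, a ratio of 108 with an exact 95% counting interval of 19.1 to 4284 (adjusted p 0.0091 by edgeR; 0.12 without the inter-molt bodies of C. gestroi and C. formosanus). Lower in the post-molt body were Cfor_08583, Cfor_04364 and Cfor_11277. Cfor_08583 had 1.39, 0.286, 0.803 and 2.68 CPM in the post-molt bodies of Hybrid G, Hybrid F, C. gestroi and C. formosanus, against 3.55, 5.05, 4.66 and 4.46 CPM in the inter-molt bodies. Its log2 fold change was -1.89 (SE 0.53, adjusted p 0.040 by edgeR; 0.12 from the post-molt and inter-molt profiles alone). Cfor_04364 averaged 2.84 ± 0.623 CPM in post-molt bodies and 6.88 ± 2.15 CPM in inter-molt bodies (SD, n = 4 crosses), with a log2 fold change of -1.10 (adjusted p 0.023 by edgeR; 0.074 without the post-molt body of Hybrid G).

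The test of the difference between tissues found 13 members whose post-molt over inter-molt change was higher in the head and 5 whose change was lower (edgeR adjusted p under 0.05), against 3.18% and 3.08% of all genes tested (6.26% in all). The members' median of this difference was 0.52 log2 units and became -0.15 without either inter-molt profile of Hybrid G. The total of calls lay between 5 and 17 with 1 profile left out. Without the inter-molt body of Hybrid G, 8 (5.88%) were higher and 5 (3.68%) lower, against 3.68% and 4.82% of all genes. From the post-molt and inter-molt profiles alone, 115 members were tested. Of these, 5 (4.35%) were higher and 3 (2.61%) lower, against 2.34% and 3.87% of all genes. Cfor_12830 had 0.731, 0.626, 0.806 and 0.924 CPM in post-molt heads of Hybrid G, Hybrid F, C. gestroi and C. formosanus, against 2.05, 1.31, 0.323 and 1.10 CPM in inter-molt heads. In the bodies of the same crosses it had 3.27, 1.06, 2.34 and 4.97 CPM at post-molt, against 0.740, 0.394, 0.203 and 0.198 CPM at inter-molt. The body was higher at post-molt in each cross, while the head was higher at post-molt in C. gestroi alone, and the difference, head minus body, was -3.13 (SE 0.52, adjusted p 0.0056 by edgeR).

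**Figure D4:**
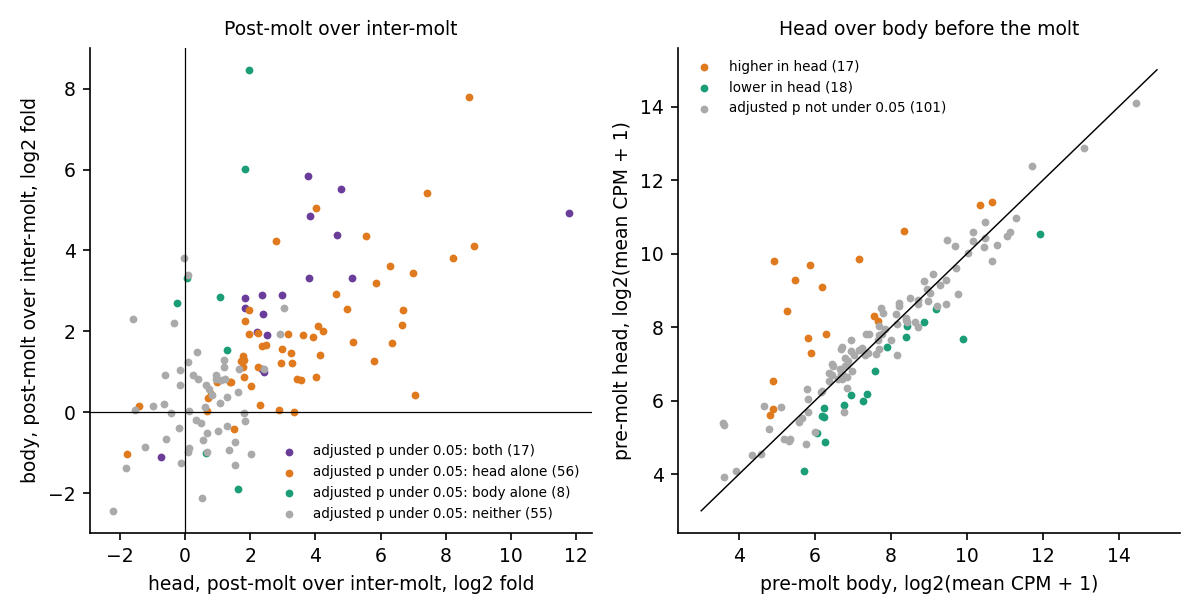
Left, log2 fold change of post-molt over inter-molt in head (x axis) and body (y axis) for the 136 genes, coloured by the tissues in which the edgeR adjusted p was under 0.05. Right, pre-molt level as log2(mean CPM + 1 over 4 crosses) in head (y axis) against body (x axis), coloured for the 17 genes higher and 18 genes lower in head, with a line at equal levels. Most points of the left panel lie right of 0 on the head axis, and the right panel scatters on both sides of its line.

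The members' ID numbers were not spread evenly. Of the 136, 45 (33.1%) had another member at the next number up or down, against 1.50% of all genes, and 70 (51.5%) had one within 5 numbers, against 5.79% of all genes. They formed 18 runs of 2 or more consecutive numbers. The files give no coordinates, so it is not known here whether neighbouring numbers are neighbouring genes. Genes with near-identical copies are uncertain, since expected counts share out reads that fit several genes, and how far this holds for neighbouring members was not tested.

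The longest run was Cfor_08085 to Cfor_08090, with 6 members, inside a stretch of 20 listed genes, Cfor_08081 to Cfor_08100, of which 16 were members. The stretches were chosen after the values were seen. Summed over the 16 members the pre-molt level was 2707, 1773, 7753 and 8304 CPM in the heads of Hybrid G, Hybrid F, C. gestroi and C. formosanus and 3315, 3392, 7863 and 15835 CPM in the bodies. Both hybrids lay below both species in both tissues. The summed level was 3.01 to 22.9 CPM in the 8 inter-molt profiles and 12.6 to 22.9 CPM in the 8 post-molt profiles. The inter-molt body of Hybrid G did not stand apart here, at 12.3 CPM against 12.1 CPM in C. gestroi and 10.6 CPM in Hybrid F. Of the 16, 11 were lower and 0 higher in hybrids than in the species before the molt, with a median log2 fold change of -1.31. Beside this, 50.7% of all members were lower and 1.47% higher, and 6.17% and 10.8% of all genes tested. In head over body 2 were higher and 4 lower, against 13.5% and 15% of all genes tested. In C. gestroi over C. formosanus 2 were higher and 1 lower, against 19.6% and 21.5%.

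Within the stretch the members differed in cross and tissue. On the CPM scale, which is not divided by gene length, Cfor_08096, described above, had a pre-molt mean of 2668 CPM and Cfor_08092 one of 1255 CPM. Cfor_08082 stood higher in the head, at 923 ± 637 CPM in pre-molt heads and 142 ± 132 CPM in pre-molt bodies (SD, n = 4 crosses). Cfor_08098 had no count in any inter-molt profile and 75.5, 64.3, 608 and 150.1 CPM in the pre-molt heads of Hybrid G, Hybrid F, C. gestroi and C. formosanus. Within the run of 6, Cfor_08085 was highest in C. formosanus, at 416 CPM in the pre-molt head and 350.0 CPM in the body, while Cfor_08089 had 349 CPM in the C. gestroi head and 75.3 CPM in the C. gestroi body. Cfor_08087 and Cfor_08100, of 876 and 854 bases, had pre-molt means of 25.3 and 25.9 CPM. Of the 4 genes of the stretch that were not members, Cfor_08097 passed 15 of the 16 folds and Cfor_08091 passed 12, while Cfor_08084 and Cfor_08095 passed 0 and had next to no counts.

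**Figure D5:**
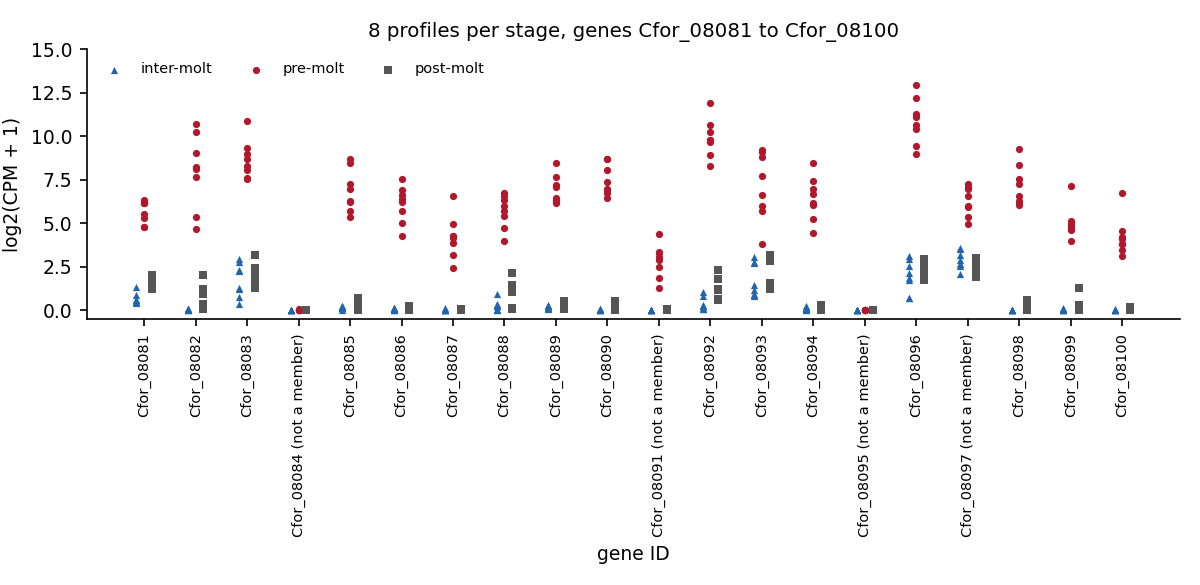
Level, as log2(CPM + 1), of the 20 genes with ID numbers Cfor_08081 to Cfor_08100 in the 8 profiles (4 crosses in head and body) of each stage. Each point is 1 profile, offset by stage within a gene, and the 4 genes outside the rule are named as such. For the 16 members every pre-molt point lies above every inter-molt and post-molt point of the same gene.

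The runs of 3 outside this stretch were Cfor_02704 to Cfor_02706 and Cfor_08162 to Cfor_08164. The 3 genes Cfor_08162, Cfor_08163 and Cfor_08164 were all lower in hybrids before the molt, with log2 fold changes between -1.40 and -1.32. This held for 50.7% of all members and 6.17% of all genes tested. Their summed pre-molt level ran between 134.5 and 749 CPM and their summed inter-molt level between 0.203 and 2.55 CPM. In the first run, Cfor_02705 was higher in C. gestroi, as given above, and Cfor_02706 had 978 and 1027 CPM in the pre-molt head and body of C. gestroi, against 339.6 and 537 CPM in C. formosanus. Their neighbour Cfor_02704 had 44.6 and 60.1 CPM in the pre-molt head and body of C. gestroi, against 56.8 and 126 CPM in C. formosanus. A further pair of stretches, chosen after their values were seen, held members of high level: Cfor_12020 to Cfor_12028 with 4 members among 9 listed genes and a summed pre-molt level of 2825 to 11473 CPM, and Cfor_09249 to Cfor_09260 with 5 members among 12 and 712 to 2067 CPM. In the second of these, 1 of the 5 was called lower in hybrids, against 50.7% of all members and 6.17% of all genes tested. The median log2 fold change of the 5 was 0.28.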

How the data were processed

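RNA was taken with Trizol and silica columns and sequenced from mRNA libraries, per the labels' protocols. The submitters' processing notes name Bowtie2, RSEM and DESeq2, with no version or role; genome build and annotation: not given in the sources used here. Expected counts stand in the deposited table (estimates; 30.2% of the values other than NA are not whole) for 15950 genes in 67 columns, beside a gene length. NA, in 8.22% of the cells, was read as 0. The columns of a group were identical, so 24 profiles were used. The 2 groups with 1 column had the lowest totals.

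Counts were rounded and tested with edgeR 4.0.16 (quasi-likelihood, TMM, low counts filtered, Benjamini-Hochberg over all genes tested) in R 4.3.3. Post-molt over inter-molt was fitted per tissue on 12 profiles with cross and stage as terms. The pre-molt contrasts and the difference between tissues were fitted on all 24 profiles with cross-by-stage and tissue-within-stage terms. These terms assume that crosses differ alike in head and body within a stage. SE was taken as the size of the log2 fold change over the root of F. Printed CPM are per column total unless TMM is named. The contrasts share profiles. Steps were tested on simulated data, and DESeq2 1.42.0, other scalings and filters, and leaving out single profiles were tried. Intervals and limits from counts cover counting error only.

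The members and lists were chosen with earlier results of these data known. Named are the 8 members with the highest mean pre-molt CPM, up to 3 per direction past adjusted p 0.05 with a pre-molt mean of at least 10 CPM in each test, those nearest the threshold, and the longest ID runs. Exceptions are marked.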

Additional observations from a re-analysis of the deposited data

Results flagged for a closer look

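In 70 groups of 4 profiles examined for a single value far from the other 3, 3 were found, and chance gives about 1 in 20. Cfor_03793 had 1918 CPM in the pre-molt head of C. gestroi, far above the other 3 crosses. Cfor_02705 had 561 CPM in the pre-molt body of C. gestroi, again far above the others. The body of Hybrid G between molts had 1.01% of its counts in the members, apart from the other 3 crosses.

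The change of post-molt over inter-molt differed between head and body, by the test of that difference, in 4 named members. It was 7.69 log2 units higher in the head for Cfor_09913 (adjusted p 0.0027 by edgeR) and 7.28 higher for Cfor_09252 (adjusted p 0.015 by edgeR). Both rest on the inter-molt body of Hybrid G, where Cfor_09913 had 82.7 CPM and Cfor_09252 had 8.51 CPM, and without it their adjusted p was 0.23 and 0.44. The difference was -3.13 for Cfor_12830 (adjusted p 0.0056 by edgeR; at most 0.031 under 23 alternatives) and -1.78 for Cfor_04719 (adjusted p 0.042 by edgeR; up to 0.13, and over 0.05 in 16 of 23 alternatives).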

How the results depend on the processing

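No paired analysis was possible because the columns of a group were identical, so that replicate numbers name no separate values. The rule held for 136 genes, and for 90 with a pseudocount of 5, 263 at 2 times and 66 at 8 times. With 1 cross left out it held for 140 to 162, a count that cannot fall below 136 because fewer folds are then asked for. The count of members past the threshold moved by over 1.5 times in these cases. Post-molt over inter-molt in body (25) gave 56 with DESeq2 and 14 without the inter-molt bodies of C. gestroi and C. formosanus. It gave 14 of the 112 members tested from the post-molt and inter-molt profiles alone, and 14 to 63 with 1 profile left out. C. gestroi over C. formosanus (27) gave 42 from the pre-molt profiles alone, 42 without the inter-molt body of Hybrid G (an alternative added after seeing the data) and 17 to 32 with 1 profile left out. Hybrid G over Hybrid F (6) gave 10 with DESeq2, 0 from the pre-molt profiles alone and 1 to 3 with 1 profile left out. Hybrids over parental species (71) gave 44 to 70 with 1 profile left out. The difference between tissues (18) gave 35 with DESeq2 and 5 to 17 with 1 profile left out. It gave 8 of the 115 members tested from the post-molt and inter-molt profiles alone. Head over body (35; 27 to 35 with 1 left out) and post-molt over inter-molt in head (73; 66 to 74) stayed within 1.5 times. Of 734 values of named genes, 80 were no longer past the threshold and 7 reversed, none of them past it: C. gestroi over C. formosanus for BGI_novel_G001120 (-0.81 to 0.20 with 1 profile left out, positive without the pre-molt head of C. gestroi), Cfor_12028 (-1.43 to 0.012, positive without the body of C. gestroi), Cfor_07265 (-0.49 to 0.41; 0.35 and 0.41 without the bodies of C. formosanus and C. gestroi) and BGI_novel_G002419 (-0.86 to 0.27; 0.11 and 0.27 in the same cases), and hybrids over species for Cfor_12028 (-0.17 to 0.55, negative without the body of C. gestroi). The cause was not tested.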
